A study of Rattus norvegicus with 2 samples.

Results

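The genes that encode the subunits of protein phosphatase 2A (PP2A), a serine/threonine phosphatase, were read in the adrenal medulla of rats with and without previous hypoglycemia. A total of 10 subunit genes were chosen by name, by their place in the PP2A complex: Ppp2ca and Ppp2cb (catalytic), Ppp2r1a and Ppp2r1b (scaffold), Ppp2r2a, Ppp2r2b, Ppp2r2c and Ppp2r2d (B family), and Ppp2r5a and Ppp2r5c (B′ family). They were measured by 17 probe sets, of 20826 probe sets on the array that are annotated to a single gene and 14217 genes in all. The 2RH30 group consisted of adult male Sprague-Dawley rats injected intraperitoneally with insulin (2 IU/kg) 2 times a day for 3 days, and the 2RS30 group of rats injected with saline on the same schedule, with 1 injection on the last of these days according to the methods of the study. On day 4, after an overnight fast, both groups underwent a hyperinsulinemic-hypoglycemic clamp, held at 40 to 50 mg/dL according to the sample labels, and were taken 30 min after the target was reached. The clamp itself was therefore common to both groups, and 2RS30 rats were acutely hypoglycemic rather than untreated. Each group was represented by 1 Affymetrix rat array, which received a single pool of left adrenal medulla RNA from 6 rats.

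PP2A works as a complex of a catalytic subunit, a scaffold that holds it, and 1 of many interchangeable regulatory subunits. The regulatory subunit decides where the enzyme goes and which phosphoproteins it acts on. In chromaffin cells PP2A removes phosphate from tyrosine hydroxylase (TH), the rate-limiting enzyme of catecholamine synthesis, which kinases switch on when the splanchnic nerve fires.

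Only differences between the 2 pools can be given. Each group was 1 array, so no difference had a replicate check and no test was run. Values are those deposited by the authors, read as log2, and each difference is the value of 2RH30 minus that of 2RS30, so that 1 on this scale is 2-fold. Differences depended on signal level over the whole array. The median difference was -0.38 in the dimmest of 20 level bins and 0.49 in the brightest. Over all probe sets that were not dim (dim means below the array median on both arrays) the median difference was 0.23. A second value, called level-adjusted, has this trend removed, and the corresponding median was then -0.03. Probe sets for the same gene also differed from each other, with an SD of 0.85 where the mean level was 5 to 7 and of 0.64 above that, and this SD is used below as a yardstick for single probe sets. This SD contains no variation among rats or among pools.

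**Figure D1:**
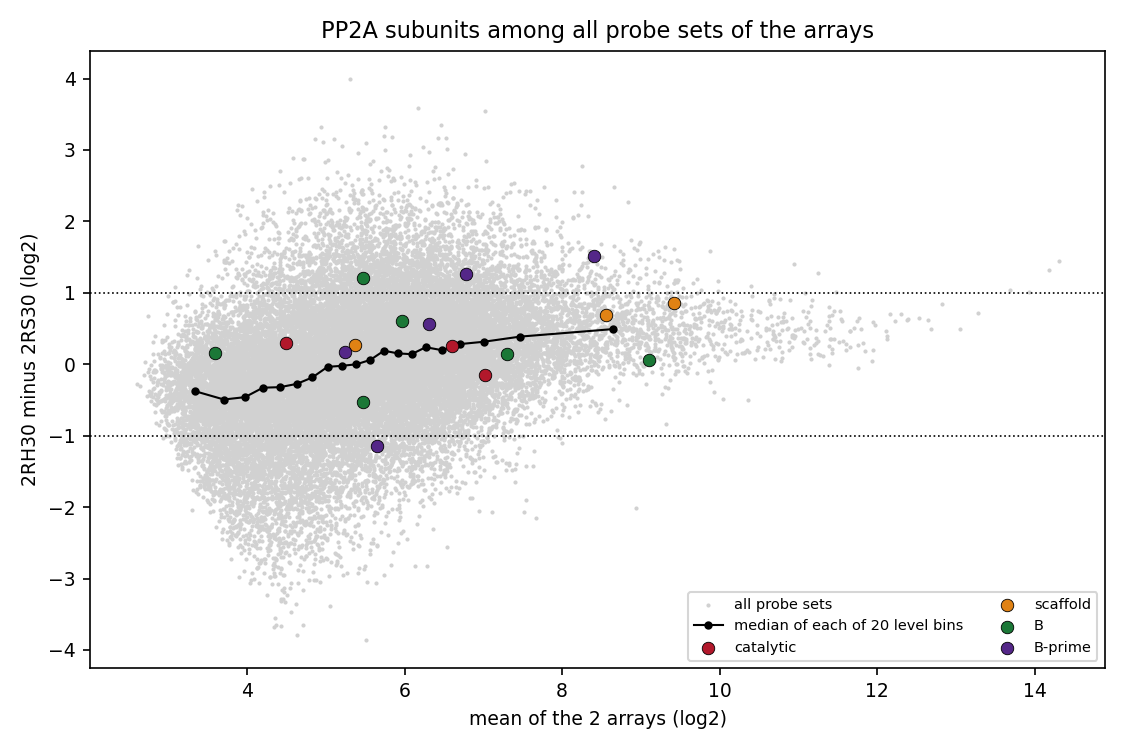
The vertical axis is the 2RH30 minus 2RS30 difference (log2) and the horizontal axis the mean level over both arrays (log2), with every probe set in grey, bin medians (20 bins) in black and the 17 PP2A probe sets coloured by role. Dotted lines mark 2-fold. Bin medians run between -0.49 and 0.49, and of the PP2A probe sets 3 lie above the upper line and 1 below the lower one.

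The labelled tissue was checked against its markers. All 7 chromaffin markers (Th, Ddc, Dbh, Pnmt, Chga, Chgb and Slc18a1) were above the dim range, with differences of 0.23 to 0.95 as deposited and -0.27 to 0.45 level-adjusted, and a summed level (log2 of the summed linear values) of 13.40 in 2RH30 and 12.89 in 2RS30. RNA of the adrenal cortex was present in both pools. All 4 measured cortical markers of the 6 listed (Star, Cyp11a1, Cyp11b1 and Cyp21a1) differed by 0.48 to 0.80 as deposited and by -0.09 to 0.22 level-adjusted, with a summed level of 13.87 in 2RH30 and 13.21 in 2RS30. Macrophage markers had a summed level of 9.26 in 2RH30 and 8.32 in 2RS30. Of these, 4 of 6 (Cd68, C1qa, C1qb and C1qc) were 2-fold or more higher in their brightest probe set, against 11.5% of all genes. Csf1r differed by -0.77 and Ptprc by -0.71 (by -2.13 in its dim probe set). The value of C1qa in 2RS30, 3.06, lay under the 5th percentile of that array, 3.67. That of the dim Ptprc probe set in 2RH30, 2.72, lay under 3.16, the 5th percentile there. The sizes of these 2 differences are therefore uncertain. Those of Schwann and sustentacular cells (3 of 5 measured) summed to 6.70 in 2RH30 and 6.55 in 2RS30, and those of endothelium (4 of 5 measured) to 7.46 in 2RH30 and 7.65 in 2RS30. In their brightest probe sets, 2 of the 3 Schwann and sustentacular markers (S100b and Gfap) and 2 of the 4 endothelial ones (Pecam1 and Kdr) were dim. No marker was listed at 0, but the lowest value on either array was 2.28, so none could be. PP2A is expressed by all of these cells, and the part of these markers in the PP2A values was not tested. In pooled tissue, a change in the number of cells of a type and a change in RNA per cell cannot be told apart. The hybridization controls, added to each sample at the array step, differed on average by -3.35 (bioB), -2.79 (bioC), -1.74 (bioD) and -0.51 (cre), and their part in the values below was not tested.

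The sequence before the annotated start of each gene was read from a table of RefSeq promoters (GRCr8), in which 8 of the 10 genes were matched (10 start sites, 3 of them for Ppp2r2b). Those of Ppp2cb and Ppp2r2a were not used here. The 250 bases before the start are shown for 4 members. Ppp2ca and Ppp2r2d hold the letters of a cAMP response element. Ppp2r5a and Ppp2r1a had the largest differences of the members as deposited, by brightest probe set. In all 4, every probe set annotated to the gene alone had a higher deposited value in 2RH30, as also in Ppp2r1b, Ppp2r2a and Ppp2r2c. Over the array 51.0% of all probe sets were higher as deposited. Of all genes with 2 or more probe sets, 29.5% had every probe set higher. Level-adjusted, the brightest probe set of Ppp2ca differed by -0.0018. A link between motif letters and values was not tested. Each sequence is written 5′ to 3′ on the strand of the gene, and capitals mark the cAMP response element (TGACGTCA), the GC box (GGGCGG on either strand) and the CCAAT box (CCAAT on either strand).
Ppp2ca, chr10:36858787-36859036, plus strand: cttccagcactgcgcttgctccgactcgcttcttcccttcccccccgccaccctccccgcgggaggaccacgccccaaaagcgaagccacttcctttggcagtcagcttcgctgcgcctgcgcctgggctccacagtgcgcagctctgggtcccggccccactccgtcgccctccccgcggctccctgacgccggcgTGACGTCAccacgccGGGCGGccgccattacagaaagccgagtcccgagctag
Ppp2r2d, chr1:203095332-203095581, plus strand: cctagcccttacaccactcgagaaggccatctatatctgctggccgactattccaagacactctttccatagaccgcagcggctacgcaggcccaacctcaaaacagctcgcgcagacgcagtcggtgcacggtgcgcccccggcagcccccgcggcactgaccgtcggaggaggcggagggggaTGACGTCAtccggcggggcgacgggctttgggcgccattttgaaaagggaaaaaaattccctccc
Ppp2r5a, chr13:105506768-105507017, minus strand: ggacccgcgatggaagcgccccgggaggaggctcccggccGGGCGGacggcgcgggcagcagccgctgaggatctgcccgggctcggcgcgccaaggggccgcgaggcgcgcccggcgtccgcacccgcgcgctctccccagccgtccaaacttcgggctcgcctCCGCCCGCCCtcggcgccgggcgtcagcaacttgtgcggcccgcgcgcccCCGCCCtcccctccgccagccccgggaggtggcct
Ppp2r1a, chr1:69212948-69213197, plus strand: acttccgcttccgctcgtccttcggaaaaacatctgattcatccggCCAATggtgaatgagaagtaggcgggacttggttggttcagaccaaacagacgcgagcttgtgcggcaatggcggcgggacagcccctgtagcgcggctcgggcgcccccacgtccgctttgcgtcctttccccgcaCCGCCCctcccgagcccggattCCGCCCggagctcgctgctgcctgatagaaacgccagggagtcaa

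The cAMP response element is the site read by CREB, which protein kinase A activates in stimulated chromaffin cells. Its letters TGACGTCA, which read the same on both strands, were found in Ppp2ca from 53 to 46 bases before the start and in Ppp2r2d from 65 to 58 bases before it, and in 1.59% of 33469 promoter windows of this length. The shorter core TGACG, searched on both strands and contained in the full element, was also found in Ppp2r5a (64 to 60 bases before the start) and before 1 start of Ppp2r2b (54 to 50 bases), and in 18.2% of all windows. GC boxes were most numerous in Ppp2r5a with 4 matches, 2 of which overlap in the run CCGCCCGCCC, and were found in 30.5% of all windows. The window of Ppp2r5a was also the one richest in G and C among the members, at 81.2% against a median of 51.2% over all windows. CCAAT was found in Ppp2r1a, Ppp2r1b, Ppp2r5c and before 2 starts of Ppp2r2b, and in 34.0% of all windows. The ER stress response element, searched on both strands as CCAAT and CCACG with any 9 bases between them and thus overlapping the CCAAT box, was found before 0 of the 10 starts and in 0.0657% of all windows. These are matches of letters, and no binding was measured.

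**Figure D2:**
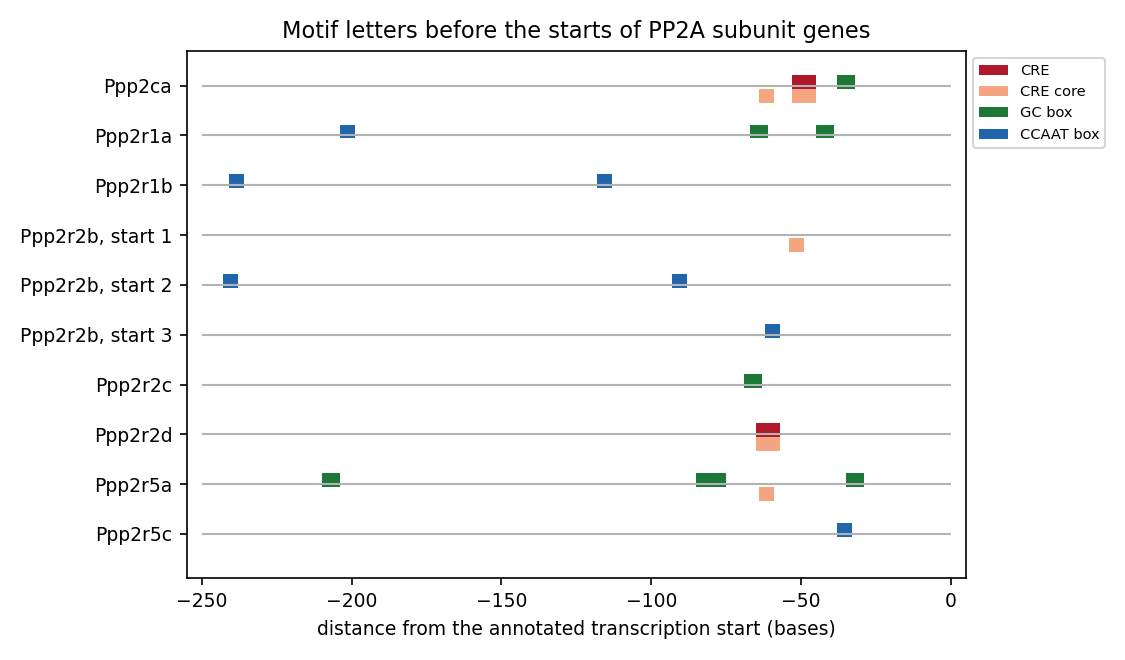
Letters of the cAMP response element (CRE), its core TGACG, the GC box and the CCAAT box on either strand, by distance in bases from the annotated start (horizontal axis), for the 10 start sites of 8 PP2A genes (vertical axis). The full CRE is present in Ppp2ca and Ppp2r2d, and Ppp2r5a has 4 GC boxes.

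Across the 17 PP2A probe sets, 13 differed by less than 2-fold. As deposited, a value higher in 2RH30 was read by 14 probe sets and a lower one by 3, where 51.0% of all probe sets were higher, with a median difference of 0.27 (level-adjusted, 11 higher and 6 lower, median 0.24), where the median over all probe sets of the array was 0.02 (level-adjusted 0.0024). Probe sets past 2-fold numbered 3 higher and 1 lower, against 10.4% higher and 12.1% lower over all 31042 probe sets. Level-adjusted, 2 were higher and 1 lower, against 8.99% and 10.2% of all probe sets. Without the 4 dim probe sets the same 3 higher and 1 lower remained past 2-fold, against 15.4% and 9.46% of all probe sets that were not dim (level-adjusted 2 and 1, against 10.6% and 11.9%). The median of these 13 was 0.56, against 0.23 over all probe sets that were not dim, and 0.20 level-adjusted, against -0.03. Of the 13, 10 were higher as deposited, against 62.0% of all probe sets that were not dim, and 7 were higher and 6 lower level-adjusted. Of these 13, 6 had a difference larger than the SD for their level (4 level-adjusted), as did 35.2% of all probe sets that were not dim (31.0% level-adjusted). Read as genes by the brightest probe set, 8 were higher and 2 lower as deposited (median 0.26). Over all genes 56.1% were higher (median 0.11), and over genes that were not dim 63.9% (median 0.26). Of the 10 members, 9 were not dim. Level-adjusted, 5 members were higher and 5 lower (median 0.12), against 51.2% of all genes higher (median 0.02). On both scales 1 of 10 was 2-fold or more higher and 0 were lower. The shares of all genes were 11.5% and 9.62% as deposited and 8.95% and 9.31% level-adjusted.

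**Figure D3:**
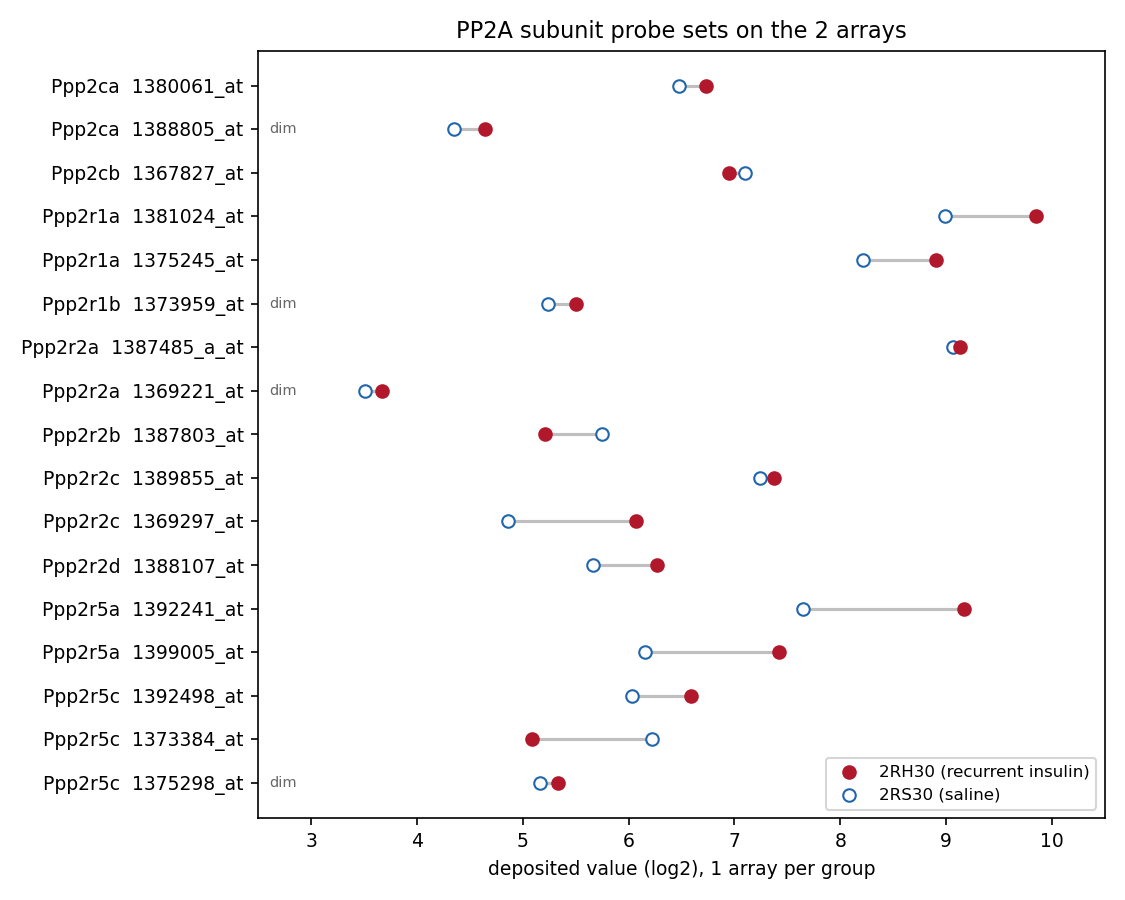
Deposited value (log2, horizontal axis) of each PP2A probe set (vertical axis) in 2RH30 (filled) and 2RS30 (open), 1 array per group, with dim probe sets marked. The widest gaps are those of both Ppp2r5a probe sets, of 1 Ppp2r2c probe set and, in the other direction, of 1 Ppp2r5c probe set.

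The catalytic subunits carry the active site and are near-identical proteins encoded by a pair of genes. Ppp2ca had a value of 6.73 in 2RH30 and 6.47 in 2RS30 (probe set 1380061_at), a difference of 0.25 as deposited and of -0.0018 level-adjusted. Its dim probe set (1388805_at) read 4.65 in 2RH30 and 4.35 in 2RS30, a difference of 0.29 (level-adjusted 0.60). Ppp2cb read 6.95 in 2RH30 and 7.10 in 2RS30 (1367827_at), a difference of -0.15 (level-adjusted -0.47). None of these differences reached the SD between probe sets where it applies. A further probe set (1398790_at) is annotated both to Ppp2ca and to Ppp2cal1, a Ppp2ca-like gene, and was set aside because it cannot tell them apart. It read 7.31 in 2RH30 and 5.96 in 2RS30, a difference of 1.35 (level-adjusted 1.08), against 0.25 and 0.29 for the probe sets annotated to Ppp2ca alone.

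The scaffold subunits join the catalytic and regulatory subunits, and Ppp2r1a encodes the predominant form in most tissues. Ppp2r1a had values of 9.85 in 2RH30 and 8.99 in 2RS30 in its brighter probe set (1381024_at), a difference of 0.85. Its other probe set (1375245_at) read 8.91 in 2RH30 and 8.21 in 2RS30, a difference of 0.69. Both were higher in 2RH30 by more than the SD of 0.64, but level-adjusted they differed by 0.33 and 0.20, within it. The values of Ppp2r1a thus lay close to the trend of other bright probe sets. Ppp2r1b, the second scaffold gene, was dim and read 5.51 in 2RH30 and 5.24 in 2RS30 (1373959_at), a difference of 0.27 (level-adjusted 0.24).

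The B family subunits, of which Ppp2r2a is the widely expressed form and Ppp2r2b and Ppp2r2c are best known from neurons, had 5 of 6 probe sets higher as deposited (median 0.15) and 3 of 6 level-adjusted (median 0.10). Over all probe sets 51.0% were higher as deposited and 50.1% level-adjusted. Of the 6, 5 were not dim. Over all probe sets that were not dim, 62.0% were higher as deposited (median 0.23) and 48.5% level-adjusted (median -0.03). Ppp2r2a read 9.13 in 2RH30 and 9.07 in 2RS30 in its bright probe set (1387485_a_at), a difference of 0.06, which became -0.46 level-adjusted. Its other probe set (1369221_at) was dim, at 3.67 in 2RH30 and 3.51 in 2RS30. The value in 2RS30 was under 3.67, the 5th percentile of the 2RS30 array, and the difference of 0.16 (level-adjusted 0.60) therefore has an uncertain size. Neither probe set of Ppp2r2a differed by more than 0.16 as deposited.

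Ppp2r2b read 5.21 in 2RH30 and 5.74 in 2RS30 (1387803_at), a difference of -0.53 (level-adjusted -0.59). It was the lowest of the 10 genes on both scales and had 1 probe set. Ppp2r2c was read differently by its probe sets. The brighter (1389855_at) read 7.37 in 2RH30 and 7.24 in 2RS30, a difference of 0.14 that became -0.23 level-adjusted. The other (1369297_at) read 6.07 in 2RH30 and 4.86 in 2RS30, a difference of 1.21 (level-adjusted 1.15), or 2.31-fold. These probe sets stood 1.07 apart, so the call of 2-fold for Ppp2r2c rests on 1 of 2 probe sets. Ppp2r2d, a B subunit whose complex is held inactive in mitosis by phosphorylated Ensa, read 6.26 in 2RH30 and 5.66 in 2RS30 (1388107_at), a difference of 0.60 (level-adjusted 0.43), within the SD between probe sets.

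**Figure D4:**
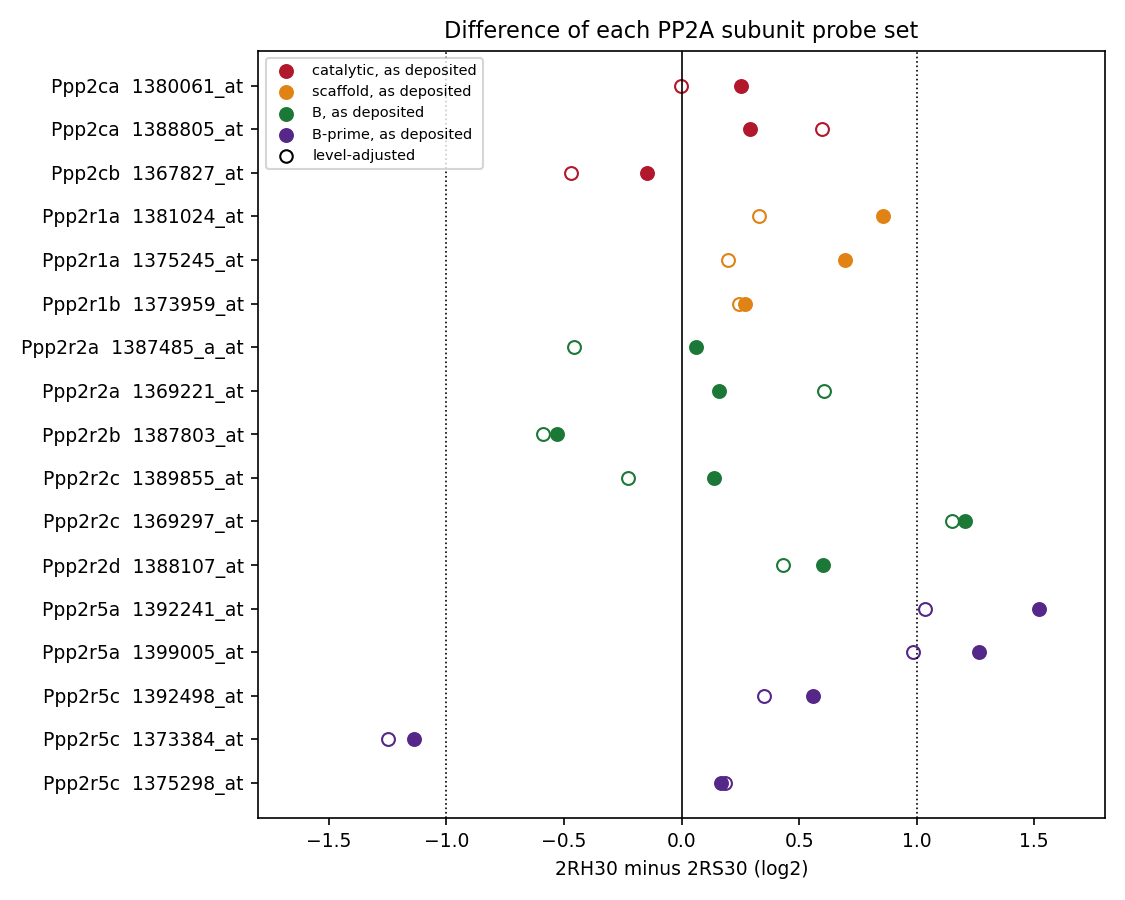
Each PP2A probe set (vertical axis), coloured by role, with its 2RH30 minus 2RS30 difference (log2, horizontal axis), filled for deposited values and open after the level adjustment. Dotted lines mark 2-fold. Both Ppp2r5a probe sets lie past the upper line as deposited, at 1.27 and 1.52, and Ppp2r5c has probe sets on both sides of 0.

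Among the members, the clearest difference was that of Ppp2r5a, a B′ subunit that directs PP2A to substrates with a short docking motif. Its brighter probe set (1392241_at) read 9.17 in 2RH30 and 7.65 in 2RS30, a difference of 1.52, or 2.87-fold. The other (1399005_at) read 7.42 in 2RH30 and 6.15 in 2RS30, a difference of 1.27, or 2.41-fold. Both exceeded the SD for their level, and they stood 0.26 apart. Level-adjusted, the differences were 1.04 and 0.98, so that 1 of the 2 was just under 2-fold. Among all genes with 2 or more probe sets, dim ones included, 61 of 4525, or 1.35%, had every probe set 2-fold or more higher as deposited. Ppp2r5a was the 1 of the 6 such PP2A members that did. Bright probe sets tended to be higher as deposited, and no share was counted level-adjusted or without dim probe sets. Level-adjusted, Ppp2r5a did not meet this rule. The differences given are between 2 pools, and the spread of Ppp2r5a between rats is not known.

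Ppp2r5c, another B′ subunit, was read in both directions. Its brightest probe set (1392498_at) read 6.59 in 2RH30 and 6.03 in 2RS30, a difference of 0.56 (level-adjusted 0.35). A second (1373384_at) read 5.08 in 2RH30 and 6.22 in 2RS30, a difference of -1.14 (level-adjusted -1.25), and was thus 2.20-fold lower in 2RH30. The third (1375298_at) was dim, at 5.33 in 2RH30 and 5.17 in 2RS30, a difference of 0.17 (level-adjusted 0.18). The probe sets of Ppp2r5c spanned 1.70, the widest span of the 6 members with more than 1 probe set. In 5 of these 6 genes all probe sets had the same sign as deposited, against 48.7% of all genes with 2 or more probe sets, and in 2 of 6 level-adjusted, against 41.8%.

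Of the 9 other PP2A subunit genes measured, all had a higher value in 2RH30 in their brightest probe set, both as deposited (median 0.94) and level-adjusted (median 0.70), where over all 14217 genes 56.1% were higher (median 0.11) and level-adjusted 51.2% (median 0.02). Of the 9, 8 were not dim. Over all genes that were not dim, 63.9% were higher as deposited (median 0.26) and 49.4% level-adjusted (median -0.0089). Past 2-fold were 2 of 9, against 11.5% of all genes. Ppp2r3c, a B″ subunit, read 6.83 in 2RH30 and 5.55 in 2RS30, a difference of 1.28 (level-adjusted 1.08). Ppp2r5d, a B′ subunit, read 7.14 in 2RH30 and 6.11 in 2RS30, a difference of 1.03 (level-adjusted 0.77), and its other probe set differed by 0.49. The remaining 7, among them Ppp2r5b, a B′ subunit linked to TH dephosphorylation in rat chromaffin-derived cells, ranged between 0.21 and 0.97, with Ppp2r5b at 0.50 (level-adjusted 0.27). Their other probe sets did not always point the same way. Ppp2r5e, another B′ subunit, read 6.29 in 2RH30 and 5.90 in 2RS30 in its brightest probe set, a difference of 0.40. Its other probe sets differed by -1.04, -0.40, 0.43 and -1.50, and their level-adjusted values kept these signs, at -1.23, -0.46, 0.49 and -1.27. Counting members and the others by brightest probe set, 17 of 19 PP2A subunit genes were higher as deposited, against 56.1% of all genes, and 14 of 19 level-adjusted, against 51.2%. Of the 19, 17 were not dim, and the shares of all genes that were not dim were 63.9% and 49.4%. As deposited, 3 of 19 were 2-fold or more higher (Ppp2r5a, Ppp2r3c and Ppp2r5d), against 11.5% of all genes. Level-adjusted, 2 of 19 were (Ppp2r5a and Ppp2r3c), against 8.95%.

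Of 11 measured regulators of PP2A activity and assembly, 4 were higher and 7 lower as deposited (median -0.08, and 0.67 without dim probe sets). Over all genes 56.1% were higher (median 0.11). Level-adjusted, 5 regulators were higher and 6 lower (median -0.05), against 51.2% of all genes higher (median 0.02). Of the 11 regulators, 1 was 2-fold or more higher and 1 lower, against 11.5% and 9.62% of all genes. Ensa, which inhibits PP2A of the B family when phosphorylated, read 7.52 in 2RH30 and 6.09 in 2RS30, a difference of 1.44 (level-adjusted 1.15), while differences of 0.15 and 0.54 were read by its other probe sets. Tiprl, which binds the free catalytic subunit, was dim and read 2.65 in 2RH30 and 4.37 in 2RS30, a difference of -1.72 (level-adjusted -1.28). The value in 2RH30 was under 3.16, the 5th percentile of the 2RH30 array, which leaves the size of the difference uncertain. Set, Mastl and Cip2a were not among the genes measured by a probe set of their own.

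The catalytic subunits of related phosphatases were split, with 5 of 9 genes higher and 4 lower as deposited (median 0.03), where 56.1% of all genes were higher (median 0.11). Level-adjusted, 4 were higher and 5 lower (median -0.25), where 51.2% of all genes were higher (median 0.02). As deposited, 2 of 9 were 2-fold or more higher and 0 lower, against 11.5% and 9.62% of all genes, and level-adjusted 2 were higher and 1 lower, against 8.95% and 9.31%. Those higher, Ppp4c and Ppp6c, are catalytic subunits closely related to that of PP2A. Ppp4c read 6.26 in 2RH30 and 4.88 in 2RS30, a difference of 1.39 (level-adjusted 1.30), and Ppp6c read 5.89 in 2RH30 and 4.65 in 2RS30, a difference of 1.23 (level-adjusted 1.24). Each has 1 probe set. The catalytic subunits of protein phosphatase 1 differed by 0.03 (Ppp1ca), -0.93 (Ppp1cb) and -0.18 (Ppp1cc), with Ppp1cb at -1.12 level-adjusted. Those of calcineurin lay between -0.09 and 0.60 as deposited in their brightest probe sets, and between -0.62 and 0.15 level-adjusted.

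**Figure D5:**
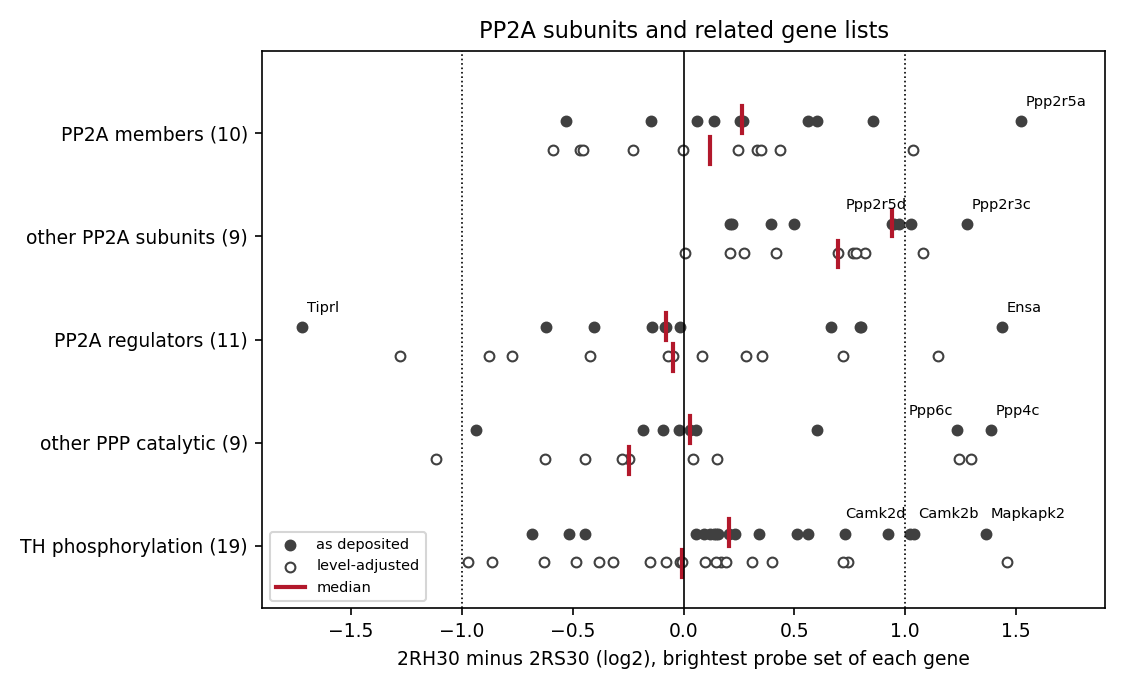
Genes of the PP2A members and of 4 related lists (vertical axis, number of genes in brackets) by the 2RH30 minus 2RS30 difference of their brightest probe set (log2, horizontal axis), filled for deposited values and open after the level adjustment, with list medians in red. Genes past 2-fold as deposited are named. All 9 other PP2A subunit genes lie above 0, with a median of 0.94, and the regulators spread on both sides of 0.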

How the data were processed

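Total RNA was pooled within each group and hybridized to 1 Affymetrix rat array. The deposited values are 1 log2 value per probe set and array, normalized by the authors. Their submission names Affymetrix Expression Console with no version, while the methods of the study describe GCRMA values made in Partek and call the deposited data quantile-normalized. Sorted values of the 2 arrays differed by up to 1.45 without controls, and the SD over probe sets was 1.57 in 2RH30 and 1.28 in 2RS30. The deposited values of the 2 arrays were thus not quantile-normalized to each other. The range (2.28 to 15.03) was read as a log2 scale, and which software made the deposited values is unclear.

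Of 31099 probe sets, 57 controls were set aside. Genes were named from the platform annotation, updated through RefSeq (GRCr8). The annotation gave 1 gene for 20826 probe sets (20758 matched), several for 436 and none for 9780. Genes were read from the probe set of highest mean level. Level-adjusted values are the difference minus a lowess curve on mean level (fraction 0.3, 3 iterations). The SD between probe sets was pooled over the level-adjusted, not dim probe sets of 1977 genes at a mean level of 5 to 7 (used for every probe set under 7) and of 550 genes at 7 or more. Summed levels are log2 of summed linear values. The named genes were all members, Th, Ppp2r5e and, of each related list, the genes past 2-fold; the other genes named were added after their values were seen. Members and lists were chosen with earlier results of these data known. Alternatives were median centring, quantile normalization, lowess, other thresholds, leaving out dim or multi-transcript probe sets, and 1 or mean values per gene. Steps were tested on simulated data. Python 3.11.15, pandas 2.3.3, numpy 2.4.6, statsmodels 0.14.6 and matplotlib 3.10.9 were used.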

Additional observations from a re-analysis of the deposited data

How the results depend on the processing

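The median difference of the 17 PP2A probe sets, 0.27, lay between 0.24 and 0.29 under median centring, quantile normalization, the lowess adjustment, 1 value per gene and after removal of probe sets able to match several transcripts, and was 0.56 without dim probe sets. As deposited and under the first 3 of these, the median was the value of a single dim probe set, that of Ppp2r1b. Other medians moved more with the level adjustment. That of the 13 probe sets that were not dim went from 0.56 to 0.20, and that of the 10 genes by brightest probe set from 0.26 to 0.12. Probe sets 2-fold or more higher and lower, 3 and 1 as deposited, were 6 and 1 at 1.5-fold and 0 and 0 at 3-fold. They were 1 and 0 with 1 probe set per gene and 1 and 0 with the mean over probe sets, as fewer values are counted. With the probe set shared by Ppp2ca and Ppp2cal1, an alternative chosen after seeing the data, they were 4 and 1, and the median was 0.28. All 40 values of single PP2A genes under the alternatives shifted from the value as deposited by less than the between-probe-set SD, although Ppp2ca, Ppp2r2a, Ppp2r2c and Ppp2r5c, each under 2-fold, changed sign under at least 1 of them. The median of the regulators, -0.08, was 0.67 without dim probe sets, and that of the TH list, 0.21, was -0.0052 after lowess. Leaving out dim probe sets removed Lcmt1, Igbp1, Tiprl and Pabir1, all lower in 2RH30, from the regulators. Of the TH list 18 of 19 genes were not dim, and lowess subtracts the trend with level. No other cause of these shifts was tested. The median of the other PP2A subunits lay between 0.70 and 0.95 and that of the related catalytic subunits between -0.25 and 0.07. Over all probe sets, 3226 higher and 3751 lower became 7068 and 7174 at 1.5-fold, 928 and 1353 at 3-fold, and 2834 and 1745 without dim ones. No paired analysis was possible because a group is a single array. Precision is limited by the number of arrays, and no signal over background is given.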

Other observations

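TH itself and genes that set its phosphorylation were read alongside PP2A. Th read 11.96 in 2RH30 and 11.45 in 2RS30, a difference of 0.51 as deposited and of -0.08 level-adjusted, and it has 1 probe set. Of 19 measured genes of the list of TH, its kinases and phosphatases and the adaptor proteins that bind phosphorylated TH (Ywha genes), 16 were higher and 3 lower as deposited (median 0.21), but 9 were higher and 10 lower level-adjusted (median -0.0052). Over all genes 56.1% were higher as deposited (median 0.11) and 51.2% level-adjusted (median 0.02). Of the 19 listed, 18 were not dim. Over all genes that were not dim, 63.9% were higher as deposited (median 0.26) and 49.4% level-adjusted (median -0.0089). Past 2-fold as deposited were 3 genes of the list, all kinases, against 11.5% of all genes. The 3 lower genes were kinases as well: Prkaca (-0.44), Camk2g (-0.52) and Prkca (-0.68), none of them past 2-fold. Mapkapk2, a kinase downstream of p38 that phosphorylates TH, read 5.73 in 2RH30 and 4.36 in 2RS30, a difference of 1.36 (level-adjusted 1.46), from 1 probe set. Camk2b and Camk2d, calcium-dependent kinases, differed by 1.04 and 1.02 (level-adjusted 0.74 and 0.72), and their other probe sets by 0.43 for Camk2b and by -0.05 and -0.33 for Camk2d.

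Some probe sets that were not the brightest of their gene had the larger differences. Strn4, a striatin that serves as a regulatory subunit of PP2A, read 5.76 in 2RH30 and 3.61 in 2RS30 in 1 probe set, a difference of 2.15 (level-adjusted 2.38), but 4.87 in 2RH30 and 4.66 in 2RS30 in the other, a difference of 0.21. The value of 3.61 lay below the 5th percentile of the 2RS30 array, 3.67, so the size of the difference of 2.15 is uncertain. Strn4 and Strn are named here because they were singled out after their values were seen. Strn had probe sets at 0.95, 0.20 and -0.72.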
